A study of Homo sapiens with 2 samples.

Results

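The interleukin 1 family was described here by 10 of its genes: the ligands IL1A, IL1B and IL18, the antagonist IL1RN, and the receptor genes IL1R1, IL1R2, IL1RL1, IL1RL2, IL1RAP and IL18R1. They were found by gene symbol and correspond to 13 of the 24267 probes on the array, among 12445 named genes. The group was chosen because IL1RL1 had the largest log2 ratio in favour of miR-210 among genes past a filter on dim signal, so the ratios of its members are given as a description and are not tested. Total RNA came from KYSE-170, an established line of human oesophageal squamous carcinoma, and was hybridised to 1-colour Cy5 oligonucleotide arrays. The control group was transfected with an oligoribonucleotide that the labels call ncRNA, whose sequence they do not give, and the other group with miR-210, a microRNA induced by hypoxia. Both groups received the same lipid transfection reagent and no other treatment is named, and neither dose nor harvest time is given. Each group was 1 array (n = 1), so no value below has a replicate error and no p-value can be given.

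Interleukin 1 family ligands are cytokines of epithelium and innate immune cells. Each binds a specific receptor chain, which then recruits a shared partner chain, most often the one encoded by IL1RAP, and the joined intracellular TIR domains bind the adaptor MYD88 and start signalling to NF-kB and MAP kinases. The family limits itself with the receptor antagonist encoded by IL1RN and with the decoy receptor encoded by IL1R2, which lacks a TIR domain. Squamous epithelium is known to store the ligand of IL1A and the precursor of IL18, and caspase 1, encoded by CASP1, cuts the precursors of IL1B and IL18 to their active forms. IL1RL1, also called ST2, is the receptor for the alarmin encoded by IL33. It is made as a membrane receptor or as a soluble decoy, and is best known from mast cells, innate lymphoid cells and type 2 helper T cells.

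The agent that separates the arrays is shown first, as the mature miR-210-3p of RefSeq (GRCh38.p14, chr11:568112-568133, minus strand), with the seed, bases 2 to 8, in capitals. The labels do not say which arm was transfected; this arm is the one usually meant by the name.
hsa-miR-210-3p: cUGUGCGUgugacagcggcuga

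IL1RL1, at the centre of this group, has a pair of RefSeq start sites, and the array annotation does not say which transcript its probe reads. Their windows, from 250 bases before to 50 after each start, are shown because the probe cannot separate them (GRCh38.p14, plus strand, chr2:102311313-102311612 for the distal and chr2:102337007-102337306 for the proximal start). Of the 2 IL1A windows, which hold as many AP-1 matches each, 1 is shown beside them (minus strand, chr2:112784444-112784743). Capitals mark AGATAA, a form of the GATA factor motif, or TGANTCA, the AP-1 motif, on either strand.
IL1RL1 distal: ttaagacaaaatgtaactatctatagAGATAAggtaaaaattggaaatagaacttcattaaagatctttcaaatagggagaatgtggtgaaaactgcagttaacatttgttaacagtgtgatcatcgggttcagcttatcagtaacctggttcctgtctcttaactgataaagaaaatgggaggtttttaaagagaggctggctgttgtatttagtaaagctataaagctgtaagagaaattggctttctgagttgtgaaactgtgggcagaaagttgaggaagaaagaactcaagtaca
IL1RL1 proximal: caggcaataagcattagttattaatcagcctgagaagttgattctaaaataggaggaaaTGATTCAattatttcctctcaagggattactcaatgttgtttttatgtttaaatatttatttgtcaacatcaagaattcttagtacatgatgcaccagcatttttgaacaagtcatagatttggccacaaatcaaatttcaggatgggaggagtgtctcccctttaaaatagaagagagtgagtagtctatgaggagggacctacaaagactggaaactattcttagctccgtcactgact
IL1A: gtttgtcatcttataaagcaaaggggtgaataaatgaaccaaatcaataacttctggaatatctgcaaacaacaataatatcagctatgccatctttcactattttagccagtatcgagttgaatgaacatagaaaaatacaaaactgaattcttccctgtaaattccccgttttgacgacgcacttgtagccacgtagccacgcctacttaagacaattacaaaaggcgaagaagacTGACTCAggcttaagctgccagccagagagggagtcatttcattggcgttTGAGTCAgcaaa

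The distal IL1RL1 window holds 1 AGATAA match and no AP-1 match, the proximal window 1 AP-1 match and no AGATAA match. The IL1A window holds 2 AP-1 matches. Other forms of the GATA motif, such as TGATAA, were not searched and are not marked. Among 35116 RefSeq promoter windows of this length, 10.3% hold AGATAA and 7.71% hold TGANTCA. Of the 40 windows of 20 family genes, 10 windows of 9 genes hold AGATAA and 4 windows of 3 genes hold TGANTCA. Windows of the same gene can overlap, as those of IL1A do, so a site can be counted more than once. TATAAA, the TATA box, and ACGTG, a hypoxia response motif, were also searched and are not marked. They were held by 7 and 5 of the 40 windows, beside 11.5% and 21.4% of all windows. Windows were available for 9 of the 10 members, all but IL18, whether or not they hold a motif. The matches describe these letters only.

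The values are fluorescence intensities as deposited, and the log2 ratio is miR-210 over ncRNA after quantile normalization of the arrays. A probe passed the level filter when its mean log2 level was at least that of the median probe, which corresponds to an intensity of 37.5. No detection calls were used, so 270 probes of olfactory receptor genes, which carcinoma cells are not expected to transcribe at a high level, served as a yardstick of dim signal. Their 95th percentile, 53.6 with ncRNA and 56 with miR-210, is called the olfactory receptor level below. The median intensity of all probes was 39 and 36. Of 16 listed epithelial and squamous markers, 15 had a named probe, and for 14 it was above the olfactory receptor level on at least 1 array. The basal squamous keratins KRT5 (290 with ncRNA and 496 with miR-210) and KRT14 (376 and 404) were above it on both arrays, as was the simple-epithelium keratin KRT18 (10285 and 14550). TP63, the squamous regulator, read 57 and 22, under that level with miR-210.

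**Figure D1:**
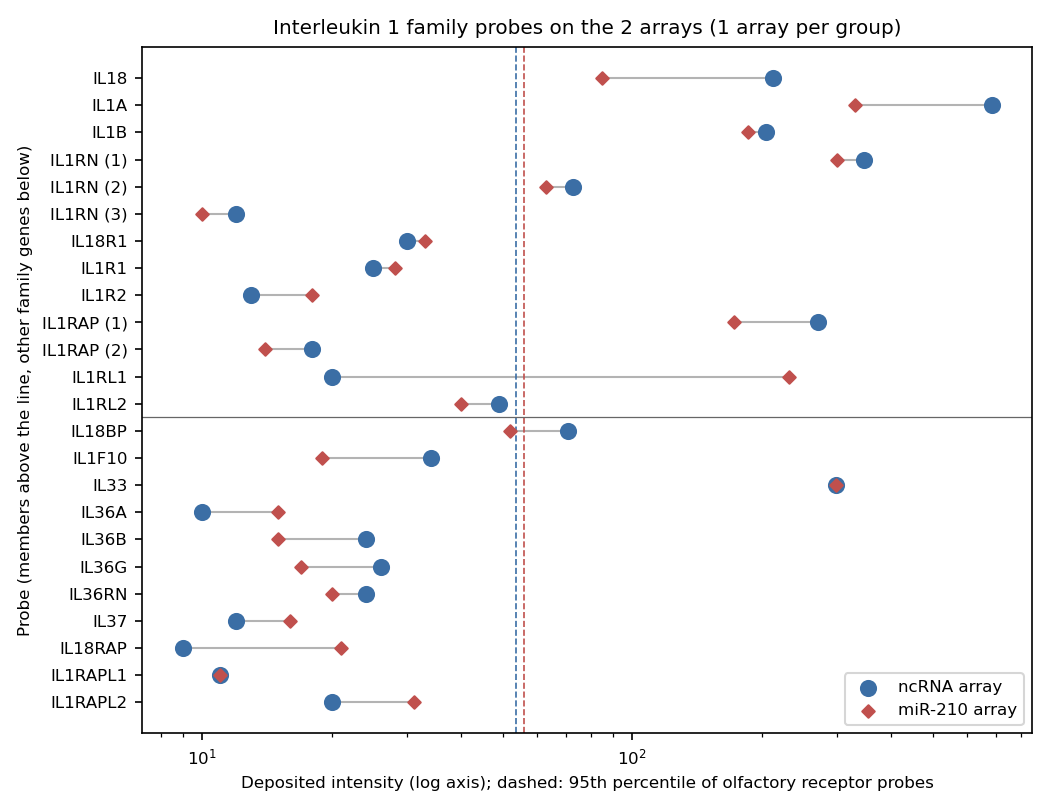
Deposited intensity (log axis) of every named probe of the interleukin 1 family on the ncRNA array (circles) and the miR-210 array (diamonds), 1 array each, with the 95th percentile of olfactory receptor probes on each array as dashed lines. IL1RL1 goes from 20 to 231, across the dashed lines, while IL18 and IL1A stay above them and are lower on the miR-210 array.

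Among the receptor genes, IL1RL1 was much higher with miR-210. Its probe read 20 in cells given ncRNA and 231 in cells given miR-210, which is 12.3-fold higher (log2 ratio 3.62). In RNA of a whole culture, more cells with a transcript and more of it per cell cannot be told apart. The ncRNA value lay under the olfactory receptor level and the miR-210 value well over it. With the ncRNA value raised to that level, IL1RL1 was at least 4.67-fold higher, and with the 99th percentile of the olfactory receptor probes (222 on the ncRNA array), at least 1.12-fold higher. IL1RL1 passed the level filter only through its miR-210 value, and no other probe of the gene is named. The 3 genes with the nearest ratios, among the 6684 that passed, were SNRPC (654 and 3541, log2 ratio 2.60), ANXA10 (55 and 275, 2.44) and FAM135A (46 and 188, 2.14). With the ncRNA value raised to the 95th percentile the log2 ratio of IL1RL1 was 2.22, under those of SNRPC and ANXA10.

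Ratios of this size also occurred among dim probes. The olfactory receptor gene OR4F6, named after its values were seen, read 2 and 24, a log2 ratio of 3.61, with both values under the yardstick. On deposited intensities, 209 of 12405 named genes were at or under the olfactory receptor level with ncRNA and over it with miR-210. IL1RL1 was 1 of them, and 526 genes crossed that level in the other direction. The crossings were counted without scaling between arrays, each array against its own level. Without scaling, 140 genes passing the filter were at least 2-fold higher and 318 lower, in place of 202 and 213 after quantile normalization. A log2 ratio of at least 3 was seen for 1 of the genes crossing upward, which is IL1RL1, the gene chosen for its ratio, and a ratio of -3 or lower for 2 of those crossing downward. Among the 1557 genes passing the filter within 0.5 log2 units of its mean level, the ratios had a SD of 0.56 and ran from -3.63 to 2.14, so that a gene of like level was as far apart on the lower side.

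IL1RAP, the shared partner chain of the receptors for the ligands of IL1A, IL1B and IL33, was measured by 2 probes. The brighter read 271 with ncRNA and 172 with miR-210 (log2 ratio -0.54), and the dimmer, at 18 and 14, stood at -0.36. Both were lower with miR-210, though the dimmer lay under the olfactory receptor level on each array. Probes of the same gene show the error between probes only. All share the same 2 arrays, so differences between cultures or hybridisations are not in it. Over 251 genes with 2 or more probes passing the filter, the ratios of the 2 brightest had a Spearman correlation of 0.29. A probe's log2 ratio had a SD of 0.44 around its gene. The ratio of IL1RAP exceeded this SD at its brighter probe only. It was about as large as the SD of the ratios of all genes passing the filter, 0.54.

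The other receptor genes were dim on both arrays. IL1R1, the signalling receptor for interleukin 1, read 25 and 28, and the decoy receptor gene IL1R2 read 13 and 18, with log2 ratios of 0.24 and 0.51. IL18R1, the binding chain of the interleukin 18 receptor, read 30 and 33 (0.23), and IL1RL2, the receptor for the interleukin 36 cytokines, read 49 and 40 (-0.20). None of these 4 exceeded the olfactory receptor level on either array. Whether the cells transcribe them at a low level was not detectable from these arrays, and ratios of such dim genes scattered widely. Of 5721 genes with no probe passing the level filter, 23.1% were at least 2-fold apart.

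Of the 4 ligand members, IL18 and IL1A were lower with miR-210, and IL1B and IL1RN differed little. IL18 read 213 with ncRNA and 85 with miR-210, 2.32-fold lower (log2 ratio -1.22). IL1A read 685 and 329, 1.93-fold lower (-0.95). Both genes stayed above the olfactory receptor level on each array, and each had 1 named probe. Among genes passing the filter within 0.5 log2 units of the same mean level, the SD of the ratio was 0.52 around IL18 (1323 genes, 35 of them at least 2-fold lower) and 0.53 around IL1A (984 genes, 28 of them at least 2-fold lower). IL18 ranked 118 and IL1A 255 from the lowest of 6684 genes.

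IL1B and IL1RN read nearly the same on both arrays. IL1B, the secreted inflammatory ligand, had intensities of 205 and 186 and a log2 ratio of -0.03. For IL1RN, the receptor antagonist, the brightest of 3 probes read 346 and 299, with a log2 ratio of -0.09. The other IL1RN probes read 73 and 63 (-0.11) and 12 and 10 (-0.26). The 3 probes thus gave the same direction, each by less than the 0.44 spread between probes. The difference between the log2 ratios of IL1A and IL1B has no test with 1 array per group.

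By the 2-fold rule, 7 of the 10 members passed the level filter, of which 1 (IL1RL1) was at least 2-fold higher and 1 (IL18) at least 2-fold lower. Over all 6684 genes passing the filter the share at least 2-fold higher was 3.02%, and that at least 2-fold lower was 3.19%. The rule that chose the group used this contrast, so nothing is read from the member counts. Without scaling between arrays 30.6% of the genes at least 2-fold apart were higher, in place of 48.7%, and the median gene stood at -0.12 in place of 0.01. The median log2 ratio was -0.06 over all 10 members and -0.20 over the 7 that passed, against 0.01 for all genes passing. The members that did not pass were IL1R1, IL1R2 and IL18R1.

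**Figure D2:**
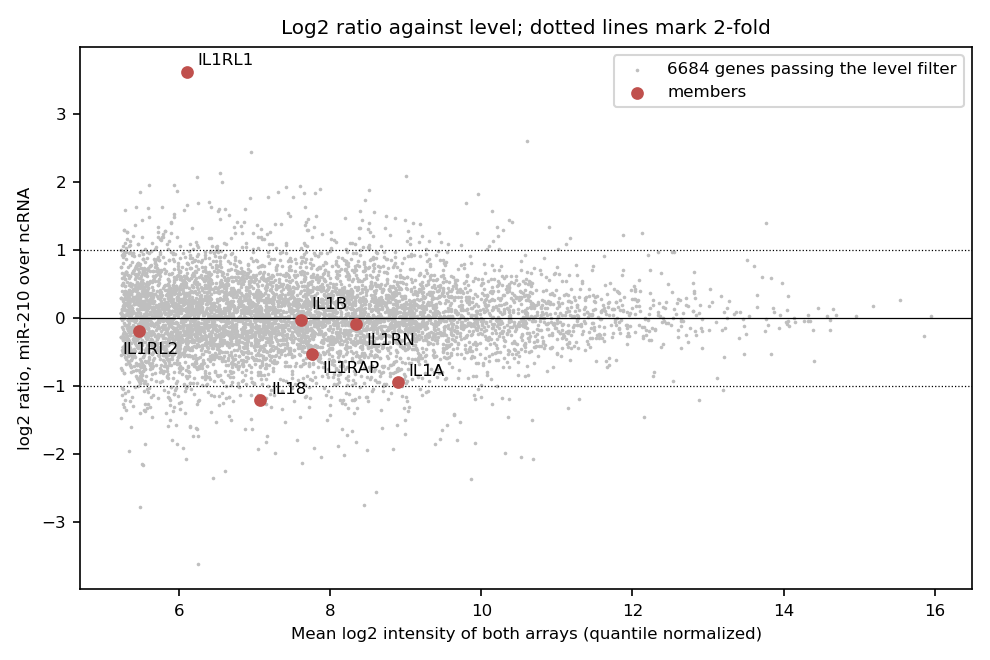
Log2 ratio of miR-210 over ncRNA (vertical axis) against the mean log2 intensity of both arrays (horizontal axis) for the 6684 genes passing the level filter, with the 7 members that passed in red and 2-fold as dotted lines. IL1RL1 stands at 3.62, IL18 at -1.22 and IL1A at -0.95, and IL1B and IL1RN lie close to 0.

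Of the wider family, 11 further genes had a named probe and 2 of them passed the filter. IL33, the ligand of IL1RL1 and a nuclear alarmin of epithelium, read 297 on both arrays, a log2 ratio of 0.13 after normalization. On the miR-210 array both ligand and receptor gene exceeded the olfactory receptor level, and on the ncRNA array the ligand gene alone did. IL18BP, the secreted trap of interleukin 18, read 71 and 52 (-0.34). The interleukin 36 genes were dim, with IL36G at 26 and 17, IL36B at 24 and 15, IL36A at 10 and 15 and their antagonist IL36RN at 24 and 20. The remaining ligand genes IL37 (12 and 16) and IL1F10 (34 and 19) were as dim, as were IL1RAPL1 (11 and 11) and IL1RAPL2 (20 and 31), receptor family genes known from neurons. IL18RAP, the signalling partner of IL18R1, read 9 and 21; its log2 ratio of 1.26 lies wholly under the olfactory receptor level. In all, 8 of 21 family genes with a probe exceeded that level on at least 1 array.

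The family also shares position. In RefSeq's gene table (GRCh38.p14), 6 receptor genes stand next to each other on chromosome 2 and 9 ligand genes form a cluster farther along the same chromosome. In chromosome order the receptor genes had log2 ratios of 0.51 (IL1R2), 0.24 (IL1R1), -0.20 (IL1RL2), 3.62 (IL1RL1), 0.23 (IL18R1) and 1.26 (IL18RAP). Among these 6, only IL1RL1 exceeded the olfactory receptor level, and its neighbours IL1RL2 and IL18R1 read 49 and 40, and 30 and 33. MAP4K4, a kinase gene beside the cluster, read 388 and 317 (-0.17). In the ligand cluster, IL1A and IL1B are adjacent and stood at -0.95 and -0.03, and IL1RN, at the far end, at -0.09. IL18, the member with the lowest ratio, and IL1RAP lie on other chromosomes, 11 and 3.

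**Figure D3:**
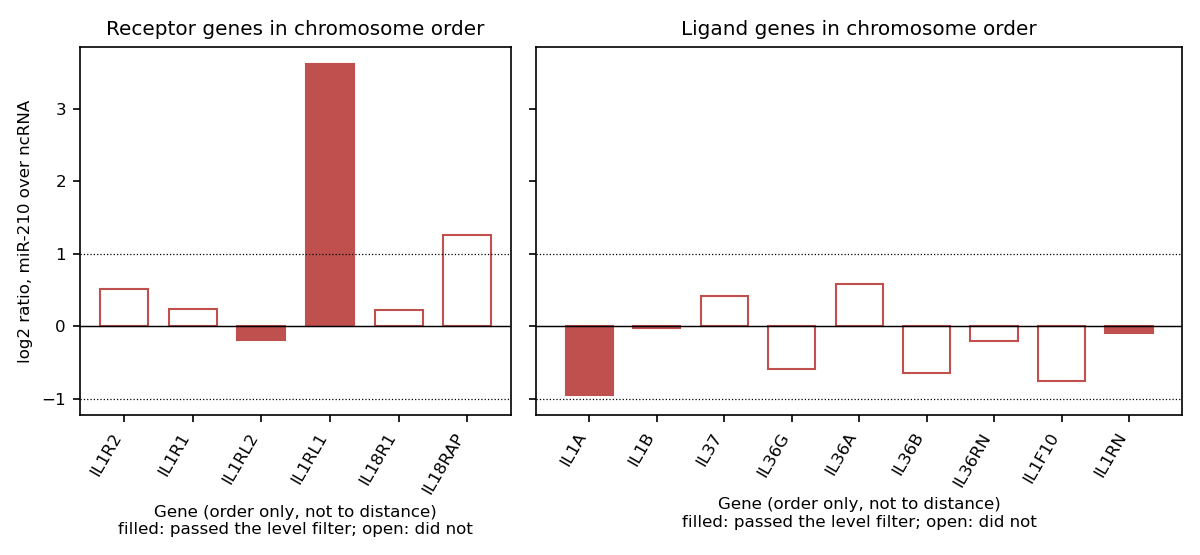
Log2 ratio of miR-210 over ncRNA for the 6 receptor genes and the 9 ligand genes clustered on chromosome 2, in chromosome order; filled bars passed the level filter, open bars did not, and dotted lines mark 2-fold. IL1RL1 at 3.62 stands between IL1RL2 at -0.20 and IL18R1 at 0.23, and IL1A at -0.95 stands beside IL1B at -0.03.

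Of 31 genes listed for the maturation and release of the ligands, 28 had a named probe. The filter was passed by 15, with a median of 0.00 against 0.01 over all genes passing. Past 2-fold were 2 higher and 1 lower, beside shares of 3.02% and 3.19% over all genes passing. CASP1, which cuts the IL18 precursor, read 210 and 86, 2.25-fold lower (-1.17), beside the -1.22 of IL18. PYCARD, the adaptor that joins inflammasome sensors to caspase 1, read 62 and 31 (-0.91), with the miR-210 value under the olfactory receptor level. TXNIP, a thioredoxin-binding protein linked to the NLRP3 inflammasome, read 744 and 352 (-0.95). The genes past 2-fold in the other direction were AIM2, a cytosolic DNA sensor that uses PYCARD and caspase 1, at 74 and 182 (1.41), and NEK7, a kinase that binds NLRP3, at 84 and 167 (1.11). CAPN1, a calpain protease, read 312 and 211 (-0.45), and CAPN2, whose product is known to cut the IL1A precursor in some cells, read 1411 and 1652 (0.41).

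The TIR signalling chain had no gene past 2-fold at its brightest probe. Of 30 listed genes 21 had a named probe and 11 passed, 5 above 0 and 6 below, with a median of -0.09. The highest were TRAF6, the ubiquitin ligase downstream of the IRAK kinases, at 107 and 168 (0.76), and TOLLIP, an inhibitor of IRAK1, at 52 and 71 (0.55). The lowest were the IkB kinase genes CHUK (294 and 216, -0.33) and IKBKB (76 and 60, -0.24). MYD88 read 40 and 33 and did not pass the filter. The 2 probes of TICAM2, an adaptor of toll-like receptors, disagreed: the brighter read 401 and 435 (0.24) and the dimmer 45 and 121 (1.52).

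Of 12 listed NF-kB subunits and inhibitors, 11 had a named probe and 8 passed. These 8 lay close to 0, with a median of 0.07 and none past 2-fold. NFKBIA, the inhibitor that NF-kB itself induces, was the lowest at 1531 and 891 (-0.62), followed by NFKB1 at 173 and 126 (-0.35). The highest were BCL3 (126 and 137, 0.23) and REL (51 and 54, 0.18). TNFAIP3, which encodes a deubiquitinase that ends the signal, read 284 and 290 (0.16).

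Of 41 genes known to be induced by interleukin 1 in epithelium, 37 had a named probe and 19 passed, with a median of 0.09. Past 2-fold were 3 higher and 3 lower, again beside 3.02% and 3.19% over all genes passing. On the lower side were the collagenase gene MMP13 (832 and 326, -1.23) and the neutrophil chemokine genes CXCL1 (73 and 32, -1.09) and CXCL3 (126 and 55, -1.09). The miR-210 values of CXCL1 and CXCL3 lay under the olfactory receptor level. CXCL8 read 1522 and 688 at its brightest probe, a log2 ratio of -0.996 just inside 2-fold, while its other probes, at 22 and 37 and at 3 and 11, stood above 0 and under the olfactory receptor level. On the higher side were IL11 (38 and 148, 2.08), the urokinase receptor gene PLAUR (82 and 257, 1.77) and the prostaglandin E synthase gene PTGES (838 and 1836, 1.29). The other PTGES probe read 77 and 176 (1.31). The ncRNA value of IL11 lay under the olfactory receptor level, and after normalization IL11 passed the filter only through its miR-210 value. PTGS2, the inducible cyclooxygenase upstream of PTGES, read 174 and 312 (0.96), and SOD2 read 467 and 815 (0.94). IL6, an interleukin 1 target in many cells, read 267 and 250 (0.02).

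**Figure D4:**
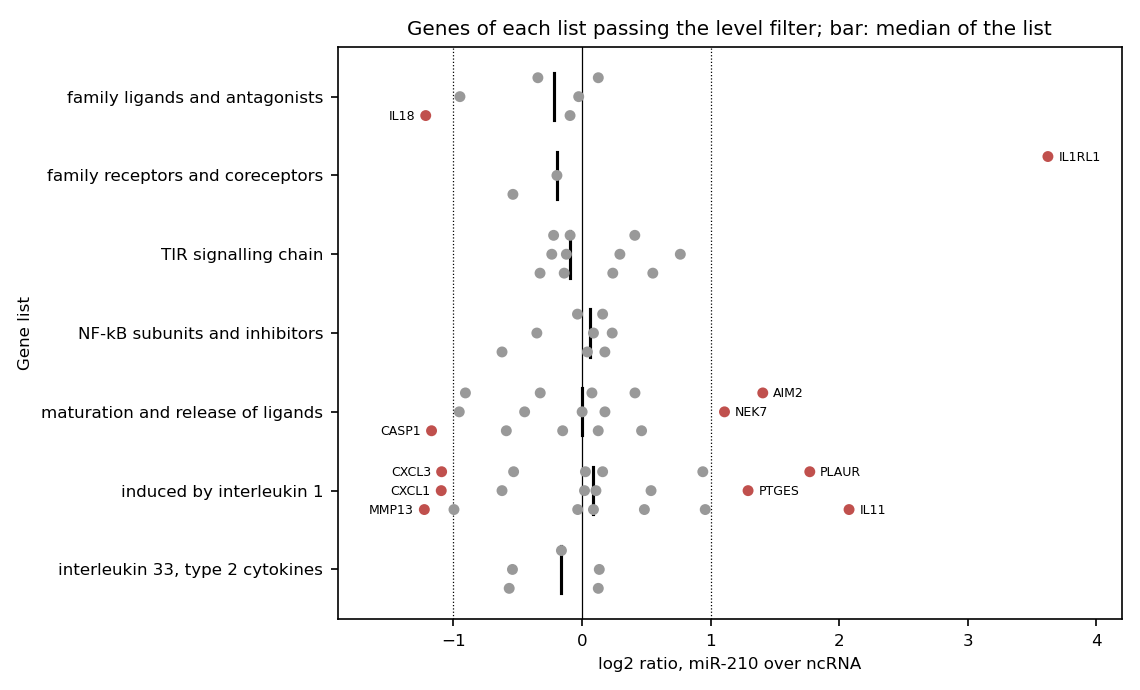
Log2 ratio of miR-210 over ncRNA for the genes of each list that passed the level filter, 1 point per gene, with a bar at the median of the list and names for genes at least 2-fold apart. Genes past 2-fold lie on both sides in the lists on maturation of ligands (CASP1 at -1.17, AIM2 at 1.41) and on induced genes (MMP13 at -1.23, IL11 at 2.08). IL11 was under the olfactory receptor level on the ncRNA array, and CXCL1 and CXCL3 were under it on the miR-210 array. None is past 2-fold in the TIR and NF-kB lists.

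Genes around IL1RL1 signalling were mostly dim. Of 16 genes on interleukin 33 inputs and type 2 cytokines, 13 had a named probe. The filter was passed by 5, IL33 itself among them, with a median of -0.16 and none past 2-fold. GATA3 read 85 and 54 (-0.54), IL17RB 82 and 51 (-0.57), IL13RA1 99 and 82 (-0.16) and GATA2 69 and 70 (0.13). The cytokine genes IL4 (18 and 16), IL5 (21 and 17) and IL13 (39 and 28), which IL1RL1 induces in lymphoid cells, were under the olfactory receptor level. Of 9 toll-like receptor genes with a probe only TLR2 (38 and 37, 0.08) passed.

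Markers of the cell types best known for IL1RL1 were mostly dim on both arrays. Mast cell and basophil markers summed, over the brightest probe of 9 genes, to 262 with ncRNA and 229 with miR-210, and 2 of the 9, MS4A2 (90 and 66) and GATA2, exceeded the olfactory receptor level. The others were under it on both arrays. They were KIT (18 and 13), HDC (14 and 15), TPSB2 (24 and 12), FCER1A (19 and 5), CPA3 (2 and 12), CMA1 (14 and 20) and SLC18A2 (12 and 16). T cell markers summed to 184 and 188 over 10 genes, and none of the 10 exceeded the level. Macrophage and neutrophil markers summed to 368 and 330, with 3 of 10 above the level. In each of these lists 11 genes had a named probe, and the 10 with a probe above 0 on both arrays were used. Endothelial markers summed to 544 and 520, with 4 of 9 above it, such as ENG (148 and 140) and VWF (126 and 103). Fibroblast markers summed to 418 and 389, with 2 of 10 above it, the brightest being DCN (183 and 181).

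**Figure D5:**
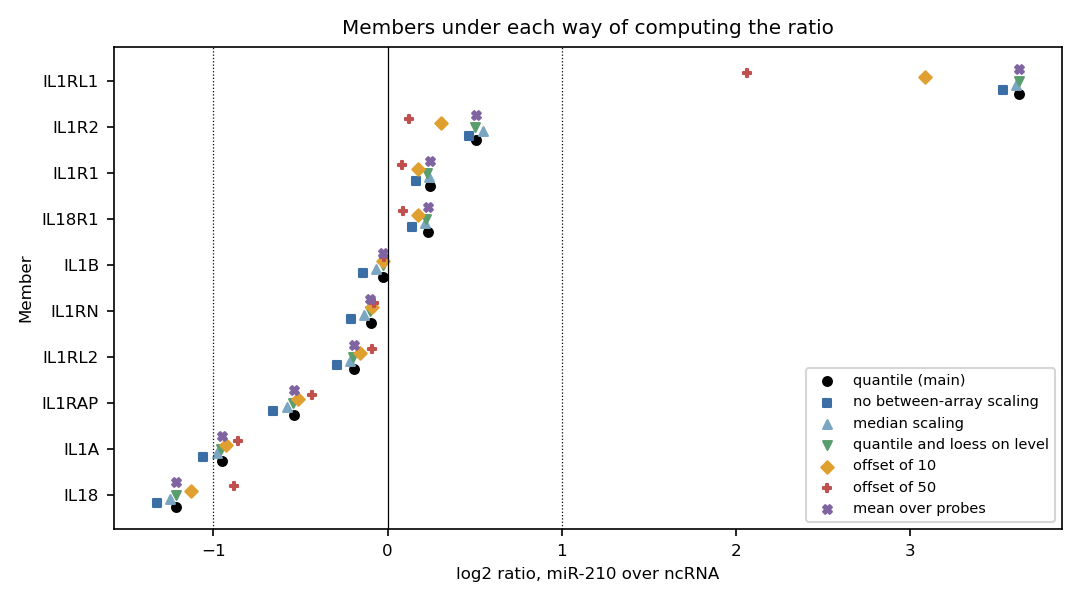
Log2 ratio of miR-210 over ncRNA for each of the 10 members under quantile normalization and 6 other ways of computing it, 1 symbol per setting, with 2-fold as dotted lines. IL1RL1 lies between 2.06 and 3.62 and IL18 between -1.33 and -0.88, and every member keeps its side of 0.

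Under these 7 settings each of the 10 members kept its sign. Adding an offset hardly changes the order of the probes on an array, so the offset settings could hardly reverse a sign. IL1RL1 was past 2-fold in each of the 7, with its lowest value, 2.06, when an offset of 50 was added to each intensity. The mean over probes cannot move a member with 1 named probe, such as IL1RL1, IL18 or IL1A. Nor can it move IL1RAP, with 1 probe passing the filter, which leaves 5 alternatives for these. IL18 stood at -0.88 with that offset and was past 2-fold otherwise. IL1A was past 2-fold only without scaling between arrays, at -1.06.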

How the data were processed

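The labels' protocols name aminoallyl-cRNA made from 500 ng of total RNA, Cy5 and a Toray oligonucleotide chip. The deposited values are intensities on a linear scale for 24267 probes per array; for scanner, background correction and normalization, nothing is stated in the sources used here. Whole-number values, some under 0, gave the unit. The number of arrays, 1 per group, limits the precision. Here the 24177 probes above 0 on both arrays were taken to log2 and quantile normalized (numpy 2.4.6, pandas 2.3.3). The step was checked on simulated data with the same noise at every level. That check does not cover the wider scatter of dim probes, such as the SD of 0.87 among olfactory receptor ratios. The level filter, at the median over probes, kept 12090 probes and 6684 genes, a gene taking its brightest probe. The platform annotation gave 13395 probes 1 symbol, and the other 10872 did not have a single symbol. Through synonyms in the RefSeq table of GRCh38.p14, 2285 of 12474 symbols were updated, and 6 family genes were found under older symbols. Sequences are from RefSeq. Alternatives were no scaling, median scaling, loess on level (statsmodels 0.14.6), offsets of 10 and 50, no filter, a filter at the 75th percentile, the mean over probes and other yardstick percentiles. Named genes are all members and family genes, those nearest IL1RL1 in ratio and the genes of the chromosome clusters. Of each list other than the marker lists, the 2 highest, the 2 lowest and all past 2-fold are named. The marker lists were outside this rule, and there KRT17 (1.01) and CLDN1 (-1.26) were past 2-fold. Of the genes flanking the clusters, only MAP4K4, which passed the filter, is named. Others named from the lists were chosen after their values were seen. Members and lists were chosen with earlier results of these data known.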

Additional observations from a re-analysis of the deposited data

How the results depend on the processing

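With 1 array per group no replicate could be left out. No paired analysis was possible because each group has 1 array and the labels number no replicates. The size of the ratios of dim probes depended on the offset. The log2 ratio of IL1RL1 was 3.09 with an offset of 10 and 2.06 with an offset of 50, since an offset shrinks ratios of dim probes by construction. Members at least 2-fold lower numbered 2 without scaling and 0 with an offset of 50. At a filter on the 75th percentile, 4 members were left, with 0 at least 2-fold higher and 0 lower. All genes at least 2-fold higher and lower numbered 87 and 94 with an offset of 50, 874 and 862 with no filter, and 95 and 97 at the 75th percentile. The median of family receptors was 0.24 with no filter, which lets in the dim genes. The medians of the TIR, NF-kB, ligand maturation and induced gene lists, all near 0, changed sign in at least 1 setting, and those of family ligands and of the interleukin 33 list stayed under 0. With the 90th or 99th percentile of olfactory receptor probes, 7 or 5 members were above the level, in place of 6.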
